A study of Homo sapiens with 6 samples.

Results

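The genes described here are 36 imprinted genes that lie outside chromosome 15. They were taken by symbol from a list, and all 36 were found among the 49278 named genes of the expression table. RNA-seq had been performed on HUES8 cells, a human embryonic stem cell line, after 3 days of definitive endoderm (DE) differentiation with 100 ng/ml Activin A. The 6 libraries comprised 2 of wild-type cells, 2 of PDHB+/- clone #1 and 2 of PDHB+/- clone #2. PDHB encodes a subunit of the pyruvate dehydrogenase complex, which makes acetyl-CoA from pyruvate, and the PDHB+/- lines carry a heterozygous knockout made by CRISPR/Cas9, each line being 1 clone. All 3 groups share the parental line, the medium and the duration of differentiation. The labels do not say whether the 2 libraries of a group came from separate cultures, so the p-values measure only the spread between these libraries. The comparisons ask which imprinted genes were higher, lower, lost or gained in both clones or in 1 clone.

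An imprinted gene is expressed mainly from the allele inherited from 1 parent. The mark that distinguishes the alleles is DNA methylation, laid down in the germline at imprinting control regions and then kept through the wave of demethylation after fertilization. The zinc-finger proteins ZFP57 and ZNF445 bind methylated control regions and recruit TRIM28, SETDB1 and DNA methyltransferases. Many imprinted genes act on growth, and they lie in clusters in which one control region governs protein-coding genes and a long non-coding RNA. Human embryonic stem cell lines are known to vary in imprinting between lines and with time in culture. The libraries give the sum of both alleles, so neither the expressed allele nor methylation was measured here.

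The start-site windows of 4 members are shown because the data bear on their transcripts: PLAGL1 and NAP1L5 were higher in PDHB+/- cells, MEG3 had the fewest reads there relative to wild-type among members with at least 10 reads in each wild-type library, and DIO3 was higher while it shares a cluster with MEG3. Each window runs from 250 bases before to 50 bases after an annotated start, from RefSeq on GRCh38.p14, and is written 5′ to 3′ on the strand of the gene. Capitals mark TGCCGC, the hexamer bound by ZFP57 when methylated, or its reverse complement GCGGCA. The first window, at chr6:144008210-144008509 on the minus strand, is the same for PLAGL1 and for the non-coding HYMAI, and it held the hexamer 2 times and 39 CG dinucleotides, whereas the other 4 windows of PLAGL1 held no hexamer. The window of NAP1L5 is chr4:88697780-88698079 on the minus strand, the first window of MEG3 is chr14:100825858-100826157 on the plus strand, and that of DIO3 is chr14:101561245-101561544 on the plus strand.
PLAGL1 and HYMAI: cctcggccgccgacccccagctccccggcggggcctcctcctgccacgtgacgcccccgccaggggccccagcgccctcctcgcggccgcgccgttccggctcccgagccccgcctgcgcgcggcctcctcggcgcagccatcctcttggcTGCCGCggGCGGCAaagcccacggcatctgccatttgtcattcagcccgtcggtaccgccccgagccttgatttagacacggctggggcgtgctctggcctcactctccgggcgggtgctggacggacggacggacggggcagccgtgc
NAP1L5: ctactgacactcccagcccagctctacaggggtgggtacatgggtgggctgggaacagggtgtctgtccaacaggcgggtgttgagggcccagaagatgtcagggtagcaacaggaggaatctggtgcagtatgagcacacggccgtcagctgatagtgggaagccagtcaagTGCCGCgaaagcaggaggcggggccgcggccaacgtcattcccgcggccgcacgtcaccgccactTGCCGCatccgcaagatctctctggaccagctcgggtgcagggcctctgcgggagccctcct
MEG3: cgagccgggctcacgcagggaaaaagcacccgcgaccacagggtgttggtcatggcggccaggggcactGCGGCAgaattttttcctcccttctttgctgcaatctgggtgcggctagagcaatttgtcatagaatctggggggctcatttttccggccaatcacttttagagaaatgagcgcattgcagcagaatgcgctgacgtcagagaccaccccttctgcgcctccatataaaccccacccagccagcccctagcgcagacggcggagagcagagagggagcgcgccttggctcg
DIO3: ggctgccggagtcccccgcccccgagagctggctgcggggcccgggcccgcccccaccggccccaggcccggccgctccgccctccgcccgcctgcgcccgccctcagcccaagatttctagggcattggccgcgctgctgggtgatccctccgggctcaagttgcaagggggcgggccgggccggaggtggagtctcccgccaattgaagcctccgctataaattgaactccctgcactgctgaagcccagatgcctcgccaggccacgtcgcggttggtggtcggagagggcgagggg
The window of NAP1L5 held the hexamer 2 times, that of MEG3 held it 1 time and that of DIO3 0 times. Over the members, 22 genes had a window, and 13 of them had at least 1 window with the hexamer. These came to 50 windows, several of them overlapping, of which 20 held the hexamer on either strand, against 16.7% of 35116 windows of all genes. The median window of the members held 20 CG dinucleotides, against 14 over all windows. A match of letters says nothing of binding or methylation in these cells.

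PDHB itself was checked first. Its level was 369 and 362 TPM (a read share scaled by gene length) in wild-type cells, 178 and 166 in clone #1, and 200.4 and 157 in clone #2. The PDHB+/- mean was 48.0% of the wild-type mean, and the log2 fold change was -1.06 (SE 0.10, limma adjusted p = 0.00077, lower in 4 of 4 PDHB+/- libraries). The libraries held 11367719 to 14315625 reads on genes, recovered from the deposited values. The DE markers SOX17, FOXA2 and CXCR4 were present in every library, SOX17 at 430 to 454 TPM in wild-type and 711 to 774 in PDHB+/- cells, FOXA2 at 139 to 144 against 120 to 146, and CXCR4 at 359 to 367 against 143 to 280. Over all genes 22.8% were called higher and 8.86% lower. Of 10 DE markers, all tested, 2 were higher (SOX17 and EOMES) and 2 lower (HHEX and GSC) in PDHB+/- cells, with a summed level of 16270 to 16480 TPM in wild-type and 11320 to 15420 in PDHB+/- cells. CER1, an inhibitor of Nodal signalling that was not called (adjusted p = 0.095), makes up most of that sum, and the other 9 markers summed to 2632 to 2667 TPM in wild-type and 2824 to 3266 in PDHB+/- cells, the opposite direction. For the lists of other cells, called markers and summed levels are given, and no list was tested as a whole. Of 8 embryonic stem cell markers 5 were higher and 1 lower, with a summed level of 1773 to 1828 TPM in wild-type and 1935 to 2359 in PDHB+/- cells. The 5 tested of 8 mesoderm markers were all higher, with sums of 11.4 to 11.8 TPM against 25.6 to 43.6. Of these, TBXT, HAND1, MSX1 and TWIST1 were under 1 TPM in both wild-type libraries. They reached the mean of 1 TPM needed for testing only through the PDHB+/- libraries, which fixed their direction in advance. TBX6, not tested, went the other way, at 1.905 and 1.313 TPM in wild-type and 0.263 to 1.246 in PDHB+/- cells. Of the 3 tested of 8 amnion and trophoblast markers 2 were higher and 1 lower, with sums of 25.2 to 27.4 TPM against 30.6 to 39.6, and CGA was at 0 in every library. Without GATA3, the most abundant of these in each PDHB+/- library but not in wild-type, the sums overlapped, at 15.8 to 17.1 TPM against 15.8 to 19.2. Of the 4 tested of 6 neuroectoderm markers 2 were higher (NES and ZIC1), with sums of 534 to 541 TPM against 476 to 597. Most of these sums is OTX2, which was not called (428 to 429 TPM against 304 to 405), and without it they were 106 to 113 TPM against 165 to 211 and did not overlap. Most of that remainder is NES alone, at 88.6 and 93.8 TPM against 142 to 193. PAX6 went the other way, at 10.8 and 12.0 TPM against 5.62 to 10.7. It was not called in PDHB+/- cells but was called lower in clone #1. Of the 3 tested of 6 extra-embryonic endoderm markers 1 was higher (PDGFRA, also a mesoderm marker) and 1 lower (FOXQ1), with sums of 80.0 to 84.9 TPM against 47.7 to 71.0, and TTR was at 0 in every library. FOXQ1 alone was at 62.9 to 64.5 TPM against 13.9 to 33.5, and the other 5 summed to 17.1 to 20.3 TPM against 31.7 to 41.6, the opposite direction. The part of these differences in the levels of the imprinted genes was not tested, and in bulk RNA fewer cells of a type and less RNA per cell cannot be told apart.

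On the log2(TPM + 1) scale, PEG10, CDKN1C, PLAGL1 and DIO3 had the largest rises in PDHB+/- cells, and DLK1 was the only member called lower. Of the 36 members, 24 reached a mean of 1 TPM over the 6 libraries and were tested, on log2(TPM + 1) with limma and with p-values adjusted over 17291 genes. At an adjusted p under 0.05, 10 members were higher and 1 was lower in PDHB+/- cells, and 13 were not called. This pooled fit takes the 4 PDHB+/- libraries as independent, although they come from only 2 clones. Over all tested genes 22.8% were called higher and 8.86% lower. The median log2 fold change was 0.25 over the 24 members and 0.13 over all genes. Of the 24 members, 14 were higher in each of the 4 PDHB+/- libraries than in either wild-type library, as were 38.4% of all tested genes, and 1 was lower in each, as were 16.4%. When the libraries were rescaled so that the median gene did not move (median-of-ratios scaling), 72.0% of calls higher over all genes became 49.1%, and 7 members were called higher and 1 lower, beside 14.0% and 14.5% of all genes. The 3 members no longer called under that scaling were IGF2R, NAP1L4 and COPG2. PEG10, CDKN1C, PLAGL1, DIO3 and DLK1 were called in this comparison under every alternative setting in which they were tested, leaving out any 1 library included.

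**Figure D1:**
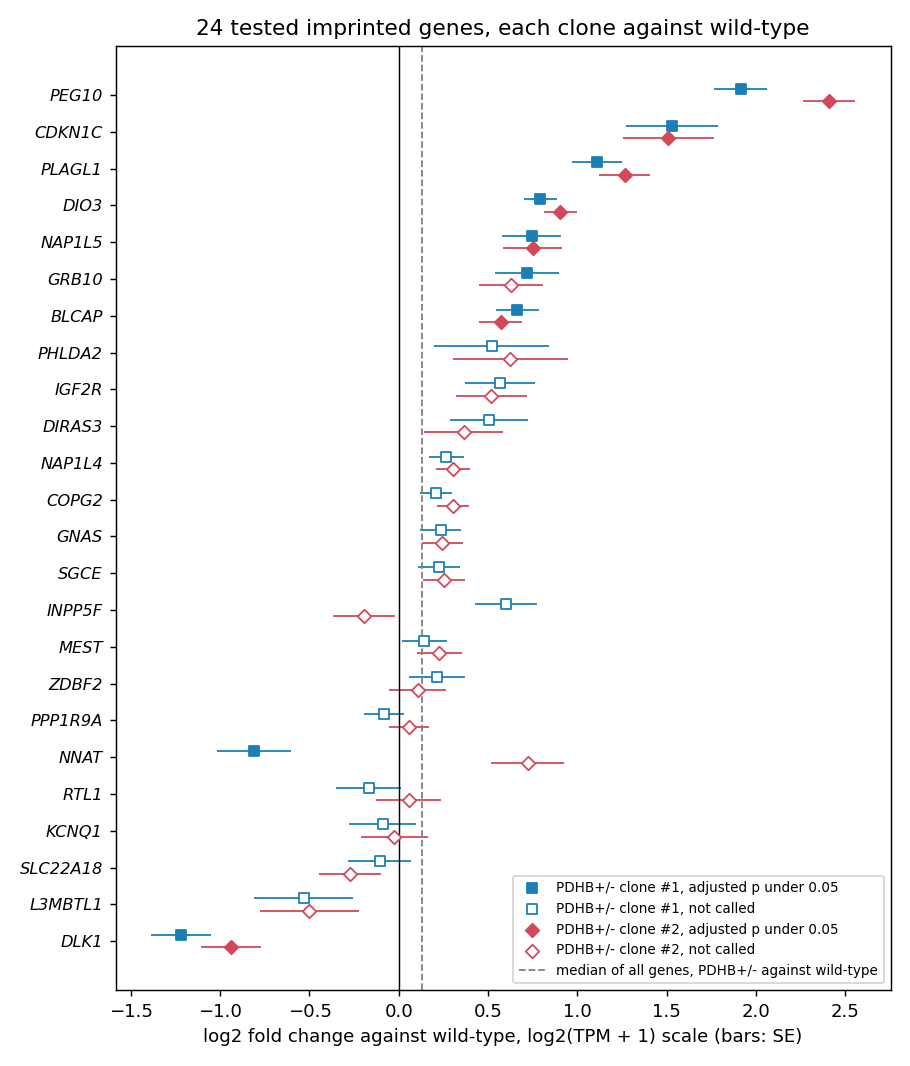
Log2 fold change of the 24 tested members in each clone against wild-type (x axis, log2(TPM + 1) scale), with bars for the SE; filled symbols have an adjusted p under 0.05 and the dashed line is the median of all genes for both clones pooled, 0.13 (0.11 in clone #1 and 0.14 in clone #2). PEG10 lies farthest to the right in both clones and DLK1 farthest to the left, while the clones lie farthest apart for NNAT, at -0.81 and 0.72, and INPP5F, at 0.60 and -0.19.

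On 14q32 the protein-coding genes at the ends of the cluster moved in opposite directions. DLK1 encodes a transmembrane protein of the Notch ligand-like family that restrains differentiation. Its level was 17.2 and 16.4 TPM in wild-type, 5.57 and 7.88 in clone #1, and 7.62 and 9.01 in clone #2, so that every PDHB+/- library was below both wild-type libraries. The fall was -1.08 on the log2 scale (SE 0.16, adjusted p = 0.0038), and by clone it was -1.22 (SE 0.17, adjusted p = 0.0081) in clone #1 and -0.94 (SE 0.17, adjusted p = 0.018) in clone #2. By clone, the call on DLK1 was kept in 13 of 15 alternative settings in clone #1 and 11 of 15 in clone #2. Both were lost without either wild-type library, and clone #2 also with no minimum TPM and without clone #2 replicate 1. DIO3, the deiodinase that inactivates thyroid hormone, was at 194.0 and 194.2 TPM in wild-type, 350.5 and 323.5 in clone #1, and 378.6 and 350.0 in clone #2. Both groups were tight and did not overlap. DIO3 rose by 0.85 (SE 0.08, adjusted p = 0.00071), with 0.79 (SE 0.09, adjusted p = 0.0053) in clone #1 and 0.90 (SE 0.09, adjusted p = 0.0041) in clone #2. The ratio of DIO3 to DLK1 was 11.3 and 11.9 in wild-type and 38.9 to 63.0 in PDHB+/- cells. The annotated genes lie 823 kb apart. Between them, RTL1, a retrotransposon-derived gene, was at 1.42 and 1.30 TPM in wild-type, 1.02 and 1.19 in clone #1, and 1.49 and 1.42 in clone #2, groups that overlapped (log2 fold change -0.06, SE 0.17, adjusted p = 0.82). In GENCODE, 32.8% of the exonic bases of RTL1 lie opposite exons of another gene, and the strand setting of the counting is not given in the sources used here.

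The non-coding RNAs of the same cluster, which are expressed from the maternal allele, were near the limit of detection. MEG3 had 10 and 12 reads in wild-type, 0 and 3 in clone #1, and 1 and 3 in clone #2. In TPM this was 0.201 and 0.222 in wild-type and 0 to 0.0529 in PDHB+/- cells, and no library of either clone reached the wild-type level. Per recovered read on genes, MEG3 in PDHB+/- cells was 13.7% of wild-type (95% exact interval 4.96% to 33.3%, counting error only), 11.9% (2.28% to 39.5%) in clone #1 and 15.6% (3.90% to 45.9%) in clone #2. MEG3 was under the 1 TPM minimum. In the alternative fit without a minimum, over 34899 genes, its difference on the log2(TPM + 1) scale was -0.23 (SE 0.04, adjusted p = 0.023), which the pseudocount shrinks at such levels and which is no fold change, with adjusted p = 0.072 in clone #1 and 0.083 in clone #2. MEG9 had 1 and 3 reads in wild-type, 0 and 0 in clone #1, and 0 and 1 in clone #2, and MEG8 had no read in any library. A count of 0 in 1 library allows up to 3 reads, which for MEG3 is 0.0494 to 0.0604 TPM.

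On 7q21 the retrotransposon-derived PEG10 rose severalfold while its head-to-head neighbour SGCE was not called. PEG10 encodes a Gag-Pol-like protein needed for placental development. Its level was 205 and 182 TPM in wild-type, 643 and 833 in clone #1, and 1019 and 1044 in clone #2. No PDHB+/- library came near the wild-type range, and the mean was 4.57 times that of wild-type. The log2 fold change was 2.16 (SE 0.20, adjusted p = 0.0006), with 1.91 (SE 0.15, adjusted p = 0.002) in clone #1 and 2.41 (SE 0.15, adjusted p = 0.0014) in clone #2. Both clone #2 libraries were above both clone #1 libraries, and clone #2 against clone #1 gave 0.49 (SE 0.15, unadjusted p = 0.015, adjusted p = 1). SGCE, a sarcoglycan of the cell membrane, starts on the other side of a gap of 191 bases. It was at 20.1 and 20.2 TPM in wild-type, 21.4 and 26.2 in clone #1, and 23.3 and 25.2 in clone #2. All 4 PDHB+/- libraries of SGCE were above wild-type, by a log2 fold change of 0.24 (SE 0.10, adjusted p = 0.095) that was not called. SGCE was called higher in 1 of 14 alternative settings, the fit without clone #1 replicate 1 (adjusted p = 0.048). The ratio of PEG10 to SGCE was 10.2 and 9.01 in wild-type, 30.0 and 31.8 in clone #1, and 43.8 and 41.5 in clone #2. PPP1R9A, which encodes the actin-binding protein neurabin 1, lies 238 kb from PEG10 and was at 6.91 and 6.11 TPM in wild-type, 6.15 and 6.02 in clone #1, and 6.75 and 6.84 in clone #2. The groups overlapped (log2 fold change -0.01, SE 0.10, adjusted p = 0.93).

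On 11p15 the largest change among tested members was in CDKN1C, the cyclin-dependent kinase inhibitor p57. This gene restrains the cell cycle and is expressed from the maternal allele. CDKN1C was at 20.8 and 22.7 TPM in wild-type, 80.3 and 52.1 in clone #1, and 78.3 and 52.0 in clone #2. The lowest PDHB+/- library was more than 2 times the highest wild-type library. The log2 fold change was 1.52 (SE 0.20, adjusted p = 0.0024), with 1.53 (SE 0.26, adjusted p = 0.015) in clone #1 and 1.51 (SE 0.26, adjusted p = 0.016) in clone #2. By clone, the call on CDKN1C was kept in 12 of 15 alternative settings in clone #1 and 11 of 15 in clone #2. It was lost without either wild-type library or without replicate 1 of the clone itself, and in clone #2 also with no minimum TPM. The fold changes ranged from 1.22 to 1.84 in clone #1 and from 1.22 to 1.80 in clone #2. PHLDA2, which limits placental growth, was at 1.16 and 1.38 TPM in wild-type, 3.55 and 1.32 in clone #1, and 2.45 and 2.53 in clone #2, and 1 clone #1 library lay among the wild-type values (log2 fold change 0.57, SE 0.26, adjusted p = 0.13). Without that library the fold change was 0.83 and was called (adjusted p = 0.031). NAP1L4, a histone chaperone gene at the edge of the cluster, was at 44.9 and 47.6 TPM in wild-type, 57.3 and 54.5 in clone #1, and 61.1 and 53.6 in clone #2. It was higher in 4 of 4 PDHB+/- libraries by 0.28 (SE 0.08, adjusted p = 0.031), and by 0.14 with an adjusted p of 0.13 under median-of-ratios scaling. The call on NAP1L4 was lost in 7 of 14 alternative settings, with an adjusted p of 0.20 and 0.12 without wild-type replicate 1 and 2, and it was called in neither clone (adjusted p = 0.099 in clone #1 and 0.075 in clone #2). The lengths used for counting were 3880 bases for CDKN1C, 1840 for PHLDA2 and 2102 for DIO3 on 14q32. These exceed the spans of the RefSeq genes (2558, 1148 and 1958 bases). The levels of these 3 genes against other genes are therefore uncertain, while ratios between libraries are not affected by the length.

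The other 11p15 members were not called or not tested. SLC22A18, an organic cation transporter, was at 2.58 and 2.75 TPM in wild-type, 2.03 and 2.81 in clone #1, and 2.04 and 2.02 in clone #2 (log2 fold change -0.19, SE 0.15, adjusted p = 0.37). KCNQ1, a potassium channel, was at 1.67 and 1.34 TPM in wild-type, 1.24 and 1.46 in clone #1, and 1.34 and 1.57 in clone #2, and its groups overlapped (-0.06, SE 0.16, adjusted p = 0.80). KCNQ1OT1, the antisense RNA that silences genes of this cluster on the paternal allele, had 85 to 117 reads in every library but, with its length, only 0.183 to 0.238 TPM. The mean of KCNQ1OT1 was 0.210 TPM in wild-type and 0.209 in PDHB+/- cells, and the groups overlapped. The growth factor gene IGF2 had 7 and 4 reads in wild-type, 11 and 20 in clone #1, and 6 and 9 in clone #2. Per recovered read on genes, IGF2 was 245% of wild-type (95% exact interval 120% to 541%, counting error only) in clone #1 and 117% (50.1% to 281%) in clone #2. In the fit without a minimum, IGF2 had adjusted p values of 0.17 in clone #1 and 0.82 in clone #2. H19, the non-coding RNA reciprocal to IGF2, had 0 to 3 reads in every library.

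On 20q13 the stimulatory G protein gene GNAS was the most abundant member in wild-type cells. It was at 403 and 416 TPM in wild-type, 499 and 466 in clone #1, and 527 and 447 in clone #2. All PDHB+/- libraries of GNAS were above wild-type, but the log2 fold change of 0.24 (SE 0.09, adjusted p = 0.077) was not called. GNAS-AS1, the antisense transcript of the locus, had 7 and 3 reads in wild-type and 0 in each of the 4 PDHB+/- libraries. In TPM it was at 1.29 and 0.507 in wild-type, and 3 reads in a PDHB+/- library would have been 0.451 to 0.547 TPM. From 10 reads against 0, the share in PDHB+/- cells was at most 19.3% of wild-type by the 95% exact interval. GNAS-AS1 was below the 1 TPM minimum, and without that minimum the difference on the log2(TPM + 1) scale was -0.89 (SE 0.16, adjusted p = 0.019), a value set by the pseudocount at such levels and no fold change, with adjusted p = 0.076 in clone #1 and 0.077 in clone #2. Of the exonic bases of GNAS-AS1, 43.1% lie opposite other annotated exons.

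**Figure D2:**
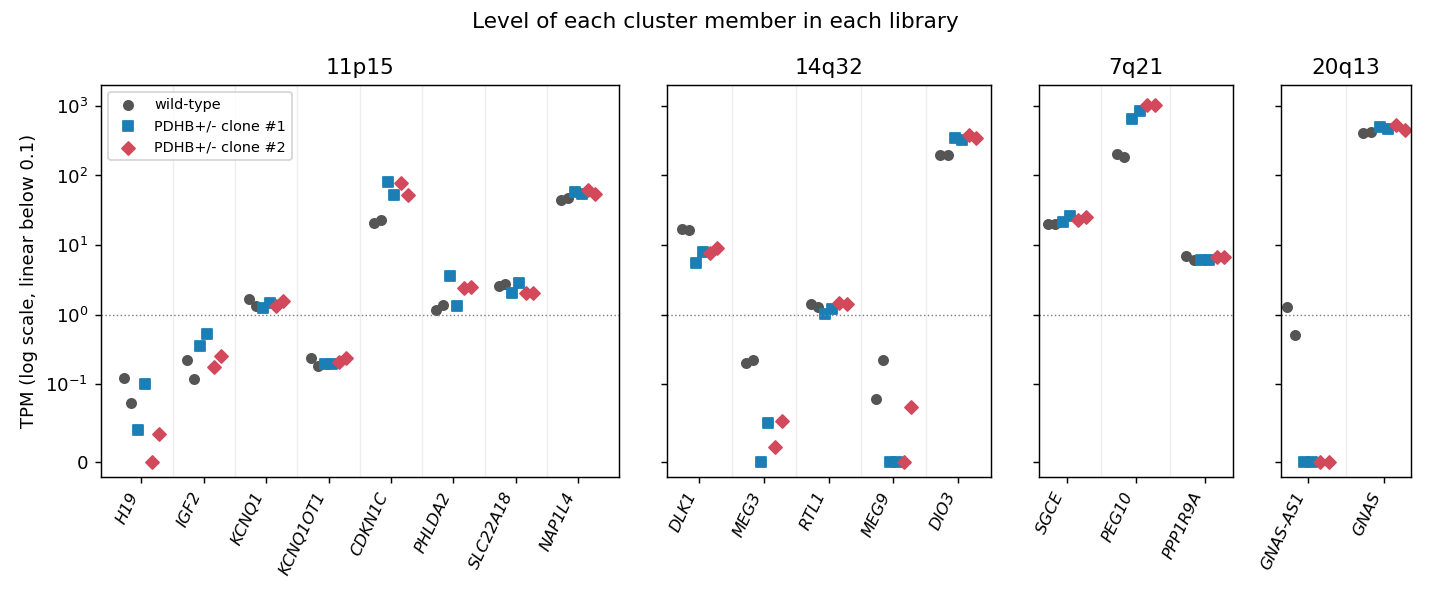
TPM of each member of the 4 clusters in each of the 6 libraries (log scale, linear below 0.1; the dotted line is 1 TPM), with MEG8, which had no read, left out. PEG10, CDKN1C and DIO3 stand higher and DLK1 lower in all 4 PDHB+/- libraries, SGCE and PPP1R9A stay close to wild-type, and MEG3 and GNAS-AS1 lie under 1 TPM or at 0 in the PDHB+/- libraries.

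No member was lost or gained by the rule used, which asked for at most 3 reads in each library of one group and at least 20 in each library of the other. Of the members, 23 had enough wild-type reads to be seen as lost and 8 had few enough to be seen as gained. Over all genes, 6 of 14915 were lost in both clones and 12 of 27914 were gained in both. With 10 reads in place of 20, MEG3 was lost in both clones, as were 19 of 16573 genes in all (0.115%). No member was lost or gained in 1 clone only under either limit, or with at most 5 reads in place of 3. GNAS-AS1 had too few wild-type reads for either limit.

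Outside the clusters, PLAGL1 and NAP1L5 were higher in both clones. PLAGL1, a zinc-finger transcription factor that restrains growth, was at 1.88 and 2.04 TPM in wild-type, 5.20 and 5.58 in clone #1, and 5.54 and 6.72 in clone #2. Every PDHB+/- library was above 2 times the wild-type level. The log2 fold change was 1.19 (SE 0.13, adjusted p = 0.001), with 1.11 (SE 0.14, adjusted p = 0.0065) in clone #1 and 1.26 (SE 0.14, adjusted p = 0.0053) in clone #2. HYMAI, which starts in the same window, had 0 to 3 reads in every library, so the rise of PLAGL1 was not accompanied by a detectable level of HYMAI at this depth. NAP1L5, an intronless gene within an intron of HERC3, was at 2.67 and 3.37 TPM in wild-type, 6.38 and 5.08 in clone #1, and 6.14 and 5.35 in clone #2. The groups did not overlap, and the log2 fold change was 0.75 (SE 0.13, adjusted p = 0.0068), with 0.74 (SE 0.17, adjusted p = 0.03) in clone #1 and 0.75 (SE 0.17, adjusted p = 0.029) in clone #2. Without wild-type replicate 1 the adjusted p of NAP1L5 in PDHB+/- cells was 0.068. By clone, its call was lost in 5 of 14 alternative settings in clone #1 and 6 of 14 in clone #2, among them in both clones limma voom on the recovered reads, no minimum TPM and leaving out either wild-type library, with an adjusted p of up to 0.16.

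GRB10 and IGF2R were also higher in PDHB+/- cells. GRB10, an adaptor that dampens insulin and insulin-like growth factor receptor signalling, was at 15.1 and 14.0 TPM in wild-type, 28.4 and 21.1 in clone #1, and 26.2 and 20.1 in clone #2. It was higher in 4 of 4 PDHB+/- libraries by 0.67 (SE 0.15, adjusted p = 0.014), with 0.72 (SE 0.18, adjusted p = 0.041) in clone #1 and 0.63 (SE 0.18, adjusted p = 0.057) in clone #2. In PDHB+/- cells the call on GRB10 was lost when either wild-type library was left out, at log2 fold changes of 0.72 and 0.62. The call in clone #1 was kept in 10 of 15 alternative settings, and lost among others with no minimum TPM (adjusted p = 0.10). In clone #2 GRB10 was called in 6 of 15, among them limma voom on the recovered reads (adjusted p = 0.019). IGF2R, the receptor that clears IGF2, was at 52.0 and 44.4 TPM in wild-type, 85.4 and 60.0 in clone #1, and 77.7 and 61.6 in clone #2. IGF2R was higher in 4 of 4 PDHB+/- libraries by 0.54 (SE 0.16, adjusted p = 0.037), which was 0.40 with an adjusted p of 0.074 under median-of-ratios scaling. By clone IGF2R gave 0.57 (SE 0.20, adjusted p = 0.094) in clone #1 and 0.52 (SE 0.20, adjusted p = 0.12) in clone #2. With the replicate number as a block in the fit, IGF2R was called in clone #1 (adjusted p = 0.016) and clone #2 (adjusted p = 0.020). Its call in PDHB+/- cells was lost in 7 of 14 alternative settings, with an adjusted p of 0.10 and 0.23 without wild-type replicate 1 and 2, 0.053 without clone #1 replicate 1 and 0.077 without clone #2 replicate 1. COPG2, a subunit of the COPI vesicle coat beside MEST, was at 32.3 and 31.9 TPM in wild-type, 36.6 and 37.8 in clone #1, and 42.2 and 37.5 in clone #2. Its rise of 0.25 (SE 0.08, adjusted p = 0.045) was called in only 3 of 14 alternative settings, and it was called in neither clone (adjusted p = 0.15 in clone #1 and 0.063 in clone #2). MEST, a hydrolase gene, was at 83.9 and 80.8 TPM in wild-type, 101 and 82.2 in clone #1, and 104 and 90.0 in clone #2. It was not called (log2 fold change 0.19, SE 0.10, adjusted p = 0.21).

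NNAT and INPP5F were the only members for which the clones lay on opposite sides of both wild-type libraries, as did 0.925% of all tested genes. NNAT, neuronatin, a small membrane proteolipid of neurons and endocrine cells, was at 52.7 and 67.1 TPM in wild-type, 37.7 and 29.7 in clone #1, and 116 and 83.7 in clone #2. Both clone #1 libraries were below and both clone #2 libraries above wild-type. NNAT was lower in clone #1 by a log2 fold change of -0.81 (SE 0.21, adjusted p = 0.043), while clone #2 gave 0.72 (SE 0.21, adjusted p = 0.057). The call in clone #1 was kept in 9 of 15 alternative settings and lost in 6, with an adjusted p of 0.11 and 0.21 without wild-type replicate 1 and 2, and 0.086 and 0.13 without clone #1 replicate 1 and 2. In clone #2 NNAT was called in 3 of 15, among them limma voom on the recovered reads (adjusted p = 0.032). Clone #2 against clone #1 gave 1.53 (SE 0.21, unadjusted p = 0.0003, adjusted p = 0.24), which was not called. BLCAP, an apoptosis-related gene in whose intron NNAT lies, was at 23.8 and 24.1 TPM in wild-type, 41.7 and 35.6 in clone #1, and 39.2 and 33.2 in clone #2. BLCAP was higher in 4 of 4 PDHB+/- libraries by 0.62 (SE 0.10, adjusted p = 0.005), with 0.66 (SE 0.12, adjusted p = 0.017) in clone #1 and 0.57 (SE 0.12, adjusted p = 0.026) in clone #2. Without wild-type replicate 1 its call in PDHB+/- cells was lost. By clone, the call on BLCAP was kept in 12 of 15 alternative settings in clone #1 and 11 of 15 in clone #2. It was lost without either wild-type library or without replicate 1 of the clone itself, and in clone #2 also with no minimum TPM. The ratio of NNAT to BLCAP was 2.21 and 2.79 in wild-type, 0.903 and 0.834 in clone #1, and 2.97 and 2.52 in clone #2. INPP5F, an inositol phosphatase, was at 58.3 TPM in each wild-type library, 102 and 77.5 in clone #1, and 58.0 and 44.4 in clone #2. INPP5F gave 0.60 (SE 0.17, adjusted p = 0.058) in clone #1 and -0.19 (SE 0.17, adjusted p = 0.45) in clone #2, and clone #2 against clone #1 gave -0.80 (SE 0.17, unadjusted p = 0.0036, adjusted p = 0.76). In clone #1 INPP5F was called higher in 8 of 15 alternative settings, with adjusted p values of 0.019 to 0.22 over them. The imprinted transcript of INPP5F starts inside the gene, and the gene-level value does not separate it.

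**Figure D3:**
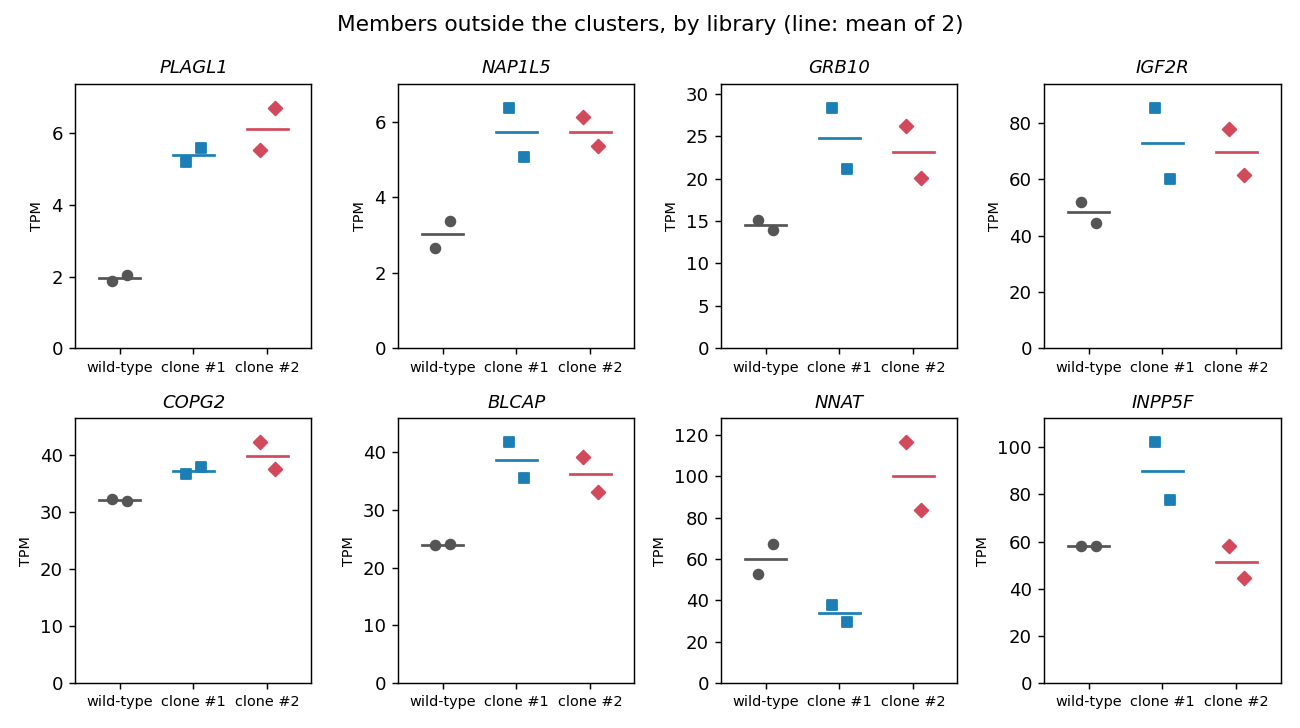
TPM of 8 members outside the 4 clusters in each library (points) with the mean of the 2 libraries of a group (lines). PLAGL1, NAP1L5, GRB10, IGF2R, COPG2 and BLCAP lie above wild-type in each of the 4 PDHB+/- libraries, NNAT is below wild-type in clone #1 and above it in clone #2, and INPP5F is above wild-type in clone #1.

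The comparisons of each clone with wild-type share the wild-type libraries and are given side by side. In clone #1, 7 members were higher (PEG10, CDKN1C, PLAGL1, DIO3, NAP1L5, GRB10 and BLCAP) and 2 lower (DLK1 and NNAT), beside 13.4% and 6.44% of all genes. In clone #2, 6 were higher (the same list without GRB10) and 1 lower (DLK1), beside 14.5% and 5.51% of all genes. Between clone #2 and clone #1, limma called 0 of 24 members and 0.0174% of all genes. At an unadjusted p under 0.05 it gave 3 members (NNAT, INPP5F and PEG10) and 3.82% of all genes. Limma voom on the recovered reads called 1 member, NNAT (1.54, adjusted p = 0.031), beside 0.0694% of all genes. Leaving out 1 wild-type library left 1 or 2 members called in each clone, with PEG10 called in each case, while calls over all genes fell from 3433 to 360 and 503 in clone #1 and from 3460 to 307 and 333 in clone #2.

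The remaining tested members were not called. L3MBTL1, a chromatin-binding protein, ranged from 5.89 to 7.75 TPM in wild-type and from 3.29 to 6.02 in PDHB+/- cells (log2 fold change -0.52, SE 0.22, adjusted p = 0.11), and it was called lower in 1 of 14 alternative settings, limma voom (adjusted p = 0.038). DIRAS3, a RAS-like growth suppressor, was at 1.15 and 1.98 TPM in wild-type and 2.01 to 2.85 in PDHB+/- cells (0.43, SE 0.18, adjusted p = 0.11), and ZDBF2 was at 1.88 TPM in both wild-type libraries and 2.06 to 2.54 in PDHB+/- cells (0.16, SE 0.14, adjusted p = 0.40). Of the 12 members that were not tested, 11 had at most 20 reads in every library. Among these, PEG3 had 1 read in each wild-type library and 0 in the others, DDC had 0 to 4 reads, MESTIT1 had 2 to 8, and MEG8 and ZIM2 had none. In wild-type cells, GNAS, PEG10 and DIO3 were the 3 members above 100 TPM, 11 lay between 10 and 100 TPM, 10 between 1 and 10 TPM, and 12 under 1 TPM. After the values were seen, part of the tested members was grouped by the parental allele from which a gene is known to be expressed. Of 12 paternally expressed members, 4 were higher and 1 was lower (median 0.21). Of 4 maternally expressed members, 1 was higher (median 0.26), beside 22.8% higher and 8.86% lower over all genes. The grouping left out GRB10, IGF2R, COPG2, NAP1L4 and BLCAP, which were called higher, and GNAS, PPP1R9A and INPP5F, which were not called. The counts are therefore no split of all calls by allele.

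**Figure D4:**
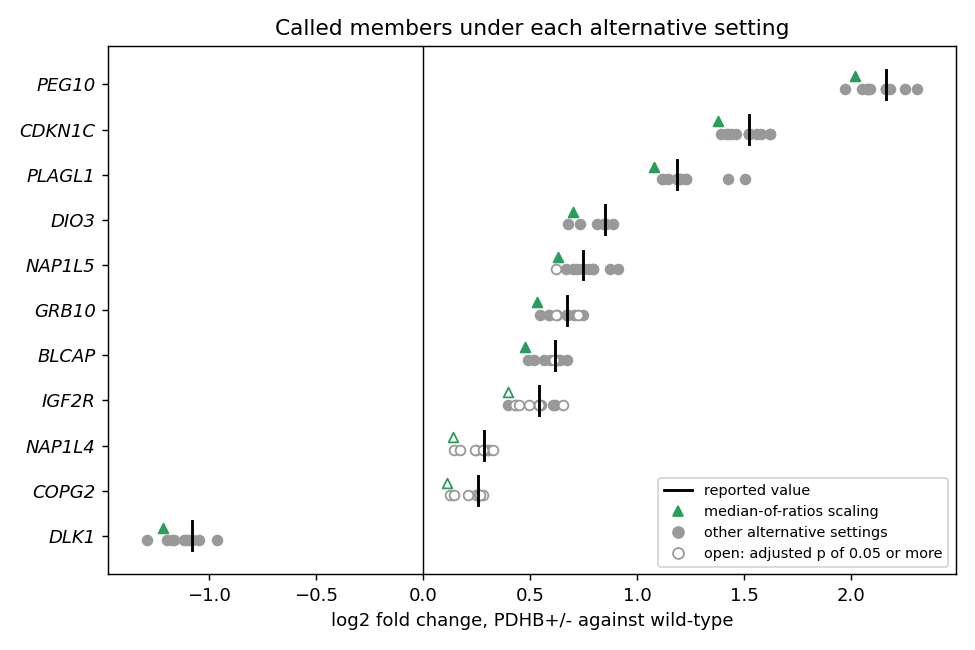
Log2 fold change of PDHB+/- against wild-type (x axis) for the 11 called members under each alternative setting (circles, triangles for median-of-ratios scaling), with the reported value as a black line and open symbols for an adjusted p of 0.05 or more. PEG10, CDKN1C, PLAGL1, DIO3 and DLK1 have no open symbol, whereas IGF2R, NAP1L4 and COPG2 have several.

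Among factors that keep or erase imprints, 18 of 27 listed genes were tested, 5 were higher (DNMT3A, TRIM28, CTCF, ZNF202 and TET3) and 2 were lower (UHRF1 and HELLS) in PDHB+/- cells, beside 22.8% and 8.86% of all genes. The median log2 fold change was 0.16 on this list and 0.13 over all genes. Of the 7 calls, 0 were left without wild-type replicate 1 and 1 without wild-type replicate 2, fits in which 7.39% and 6.56% of all genes were called higher and 2.84% and 2.99% lower. TRIM28, the corepressor recruited by ZFP57 and ZNF445, was at 385 and 389 TPM in wild-type and 512 to 571 in PDHB+/- cells (0.50, SE 0.08, adjusted p = 0.0043). CTCF, the insulator protein that binds unmethylated control regions, was at 74.3 and 71.2 TPM in wild-type and 94.3 to 112 in PDHB+/- cells (0.48, SE 0.09, adjusted p = 0.0068). HELLS, a chromatin remodeller needed for DNA methylation, was at 19.4 and 18.2 TPM in wild-type and 11.2 to 13.5 in PDHB+/- cells (-0.59, SE 0.10, adjusted p = 0.0048). ZNF202 rose by 0.60 (SE 0.12, adjusted p = 0.0099) and TET3, a 5-methylcytosine oxidase, by 0.45 (SE 0.12, adjusted p = 0.031), and under median-of-ratios scaling TET3 and DNMT3A were no longer called. DNMT1, the maintenance methyltransferase, was at 72.7 to 76.7 TPM in every library. ZFP57, below the 1 TPM minimum and not in the main fit, was at 0.270 to 0.294 TPM in wild-type and 0.0925 to 0.184 in PDHB+/- cells. Without that minimum 8 genes of this list were called, among 4497 of 34899 genes in all.

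Among further imprinted genes outside chromosome 15, 41 of 47 listed were in the table and 22 were tested, of which 8 were higher and 1 was lower in PDHB+/- cells, beside 22.8% and 8.86% of all genes. Their median log2 fold change was 0.19, beside 0.13 over all genes. Leaving out either wild-type library left 1 library in that group, and calls then fell both in this list and over all genes. TFPI2, an inhibitor of serine proteases that lies 766 kb from PEG10 on 7q21, was at 1.64 and 0.975 TPM in wild-type, 35.2 and 23.8 in clone #1, and 27.3 and 23.6 in clone #2. Its log2 fold change was 3.62 (SE 0.19, adjusted p = 0.00012), above that of every member. SLC22A3, an organic cation transporter 237 kb from IGF2R, was at 3.58 and 3.54 TPM in wild-type and 10.7 to 16.9 in PDHB+/- cells (1.62, SE 0.16, adjusted p = 0.00086). THSD7A (1.12, SE 0.14, adjusted p = 0.0017) and ZC3H12C (0.75, SE 0.17, adjusted p = 0.015) were higher as well. THSD7A was at 0.809 and 0.690 TPM in wild-type and 2.589 to 3.035 in PDHB+/- cells. It reached the 1 TPM minimum only through the PDHB+/- libraries, which fixed its direction in advance. ZNF331, a zinc-finger gene, was at 13.3 and 12.8 TPM in wild-type and 6.72 to 7.47 in PDHB+/- cells (-0.78, SE 0.09, adjusted p = 0.0012). The imprinting of TFPI2 and SLC22A3 has been described mainly in placenta.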

How the data were processed

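The authors prepared total RNA libraries from HUES8 cells after DE differentiation, aligned the reads to GRCh38 with Bowtie2, kept each read at 1 location, used featureCounts for gene counts and deposited these as TPM values, per the labels and the methods. The submitters' processing notes give Bowtie2 2.3.5.1, and the study's methods give another version. Bowtie2 does not split reads across introns, so junction reads can be missing. The annotation and the strand setting are not given in the sources used here. All 6 columns were used, and 1 line without a name that repeats the totals was dropped. TPM are not counts, so limma 3.58.1 (R 4.3.3, with a variance trend and Benjamini-Hochberg adjustment) was run on log2(TPM + 1) for the 17291 genes that averaged 1 TPM or more, with PDHB+/- against wild-type as 2 groups and the clones as 3 groups. Differences were called at an adjusted p under 0.05. Whole reads were recovered for 99.99% of 34899 genes above 0 (tolerance 0.002 reads) and gave the depth, the limits on reads and 1 alternative test. The fit was tested on simulated data, and so was the recovery, which there returned the exact reads for most but not all genes. The reads carry no molecular identifiers, so intervals and limits cover counting error only.

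Per-library values, fold changes and tests are given for members called in any comparison, members lost or gained, and members of the 11p15, 14q32, 7q21 and 20q13 clusters, and the other members are given by range. Of the further lists, at most 5 called genes with the largest changes have values, beside PDHB and genes named for context. The latter were named after their values were seen (DNMT1, ZFP57, NLRP2, NLRP7, DNMT3L, MEST, SOX17, FOXA2, CXCR4, CER1, TBXT, HAND1, MSX1, TWIST1, TBX6, GATA3, OTX2, NES, PAX6, FOXQ1, INPP5F). The members and lists were chosen with earlier results of these data known. Shared exons were computed from GENCODE, and windows came from RefSeq, in which 22 of 36 members matched.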

Additional observations from a re-analysis of the deposited data

Results flagged for a closer look

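NNAT was noted because every clone #1 library lay below and every clone #2 library above both wild-type libraries. Clone #2 minus clone #1 was 1.53 on the log2 scale, with a limma adjusted p of 0.24. INPP5F was noted because both clone #1 libraries lay above and both clone #2 libraries below wild-type, with a difference between clones of -0.80 (adjusted p = 0.76). The lower wild-type library of INPP5F exceeded the higher clone #2 library by less than 1 TPM. The cause of either difference was not tested, and each clone is 1 line. SLC22A18 in clone #1 replicate 2, at 2.81 TPM, lay apart from the other 3 PDHB+/- libraries, which were at 2.02 to 2.04 TPM. A rate of about 1 in 20 such groups set apart by chance was assumed, not estimated from these libraries, and 24 were examined.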

How the results depend on the processing

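The 11 members called in PDHB+/- cells became 5 to 11 when 1 library was left out, with 5 without wild-type replicate 1 and 7 without wild-type replicate 2, where calls over all genes fell from 5475 to 1772 and 1654. PEG10, CDKN1C, PLAGL1, DIO3 and DLK1 were called in PDHB+/- cells in all alternatives run for them. Clone #1 calls (9) were 10 without either clone #2 library, and clone #2 calls (7) were 8 without either clone #1 library. Leaving out either wild-type library, or replicate 1 of the clone itself, left 1 library in a group. Calls by clone then fell both among the members and over all genes. Without a filter on low values clone #2 had 3, where calls over all genes went from 3460 of 17291 to 1793 of 34899. Clone #2 against clone #1 gave 0 calls, and 1 with limma voom on recovered reads. With 1 library left out, imprint maintenance calls (7) ranged from 0 to 6 and other imprinted calls (9) from 4 to 10, lowest without a wild-type library. Calls over all genes (5475) fell in each of these fits, furthest without a wild-type library. Without 1 PDHB+/- library, calls over all genes were 4597 to 5200. Members lost or gained rose from 0 to 1 (MEG3) with at least 10 reads. In PDHB+/- against wild-type the sign turned only among uncalled members, when 1 library was left out: KCNQ1 ranged from -0.152 to 0.037, RTL1 from -0.101 to 0.001, PPP1R9A from -0.091 to 0.064 and NNAT from -0.380 to 0.266. In the comparisons by clone or between clones, signs turned as well, among values that were not called. The cause was not tested. Replicate numbers did not pair wild-type with the clones (deviations correlated at -0.0124 and -0.00748), while clone libraries of the same number deviated together (0.353). A replicate block gave 11, 11 and 9 member calls in PDHB+/- cells, clone #1 and clone #2, adding INPP5F (adjusted p = 0.025) and IGF2R (0.016) in clone #1 and GRB10 (0.018) and IGF2R (0.020) in clone #2, and 6266 in place of 5475 calls over all genes. The depth limits MEG3, GNAS-AS1, H19, IGF2 and the other members with few reads.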
